A study of Saccharomyces cerevisiae with 55 samples.

Results

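The budding yeast (Saccharomyces cerevisiae) mutant described here carried arginine in place of lysines 5, 8 and 12 of the histone H4 N-terminal tail (K5R, K8R and K12R) and kept lysine 16. Its members were the arrays whose label names exactly these substitutions, which gave 5 of the 55 arrays of the series. They came from 2 mutant strains: 4 arrays compared MDY465 with the parental strain MDY453, and 1 array compared MDY482 with the parental strain MDY470. The MDY482 array is replicate 1, and the MDY465 arrays, always given in the same order, are replicates 2 to 5. The study put all combinations of K5R, K8R, K12R and K16R through the same 2-colour design, with a parental strain carrying intact H4 on each array. The other mutants used below are the single mutants K5R, K8R and K12R (3 arrays each), the double mutants K5R/K8R (4 arrays), K5R/K12R (3) and K8R/K12R (3), and the triple mutants with K16R, namely K5R/K8R/K16R (3), K5R/K12R/K16R (4) and K8R/K12R/K16R (4). They mixed the parental strains differently from the triple mutant. The single mutants K5R (MDY455 and MDY472), K8R (MDY456 and MDY473) and K12R (MDY457 and MDY474) each had 2 arrays against MDY453 and 1 against MDY470. K5R/K8R (MDY459 and MDY476) had 2 against each parental strain, K5R/K12R (MDY460 and MDY477) 1 against MDY453 and 2 against MDY470, and K8R/K12R (MDY479) all 3 against MDY470. Of the triple mutants with K16R, K5R/K8R/K16R (MDY466 and MDY483) had 2 arrays against MDY453 and 1 against MDY470, K5R/K12R/K16R (MDY467 and MDY484) all 4 against MDY453, and K8R/K12R/K16R (MDY468 and MDY485) 3 against MDY453 and 1 against MDY470. The labels give strain names but no medium, growth phase, mating type or further genotype, and do not say which H4 gene copy carried the substitutions.

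The H4 tail leaves the nucleosome and is acetylated on these lysines by the NuA4 complex and other acetyltransferases. Acetylation neutralises the charge of the lysine and is read by bromodomain proteins such as Bdf1. Lysine 16 is set apart by its role in silent chromatin, where the Sir proteins bind the unacetylated tail at telomeres and at the silent mating-type cassettes. Arginine stays positively charged and is not a substrate of these enzymes, so the mutant has a tail that lysine acetylation can reach only at position 16.

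Values are log2 ratios, likely of mutant over parental: the parental strain was the reference on every array, while neither the dyes nor the direction of the ratio is given in the sources used here. If the ratio runs the other way, all signs below turn and every higher and lower count changes places. A log2 ratio of 1 is a 2-fold difference. "Higher" and "lower" below mean an adjusted p under 0.05 in the limma fit over 5540 genes (Benjamini-Hochberg), and fitted values are given with their SE. Each ratio was tested against 0, and the labels do not say whether arrays shared a parental culture, so part of the parental spread may be missing from the test. Only some labels name biological replicates, so the p-values measure the spread between these samples, part of which may be technical. The 5 arrays correlated with each other across genes at r between 0.806 and 0.929. The MDY482 array stood apart in technical measures: it had 17 missing values against 99 to 122 on the other arrays, and 210 values at the ratio limit of 100 against 58 to 85. Mutant strain and parental strain change together on that array and cannot be told apart, so values are given with its place among the others.

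The triple mutant had 1651 genes higher (29.8% of those tested) and 1671 lower (30.2%) than the parental strain. Most differences were small: 144 genes (2.6%) were higher by at least 2-fold and 52 (0.939%) lower by at least 2-fold, or 52 higher and 144 lower with the ratio turned. Spread over genes, taken as the SD of an array's log2 ratios, averaged 0.446 ± 0.0229 (SD, n = 5 arrays). In the single mutants the same measure averaged 0.152 for K5R, 0.156 for K8R and 0.169 for K12R, and in the double mutants 0.218 for K5R/K8R, 0.259 for K5R/K12R and 0.271 for K8R/K12R. The lowest triple-mutant array, at 0.407, lay above the highest array of these 6 mutants, at 0.277. The triple mutants with K16R averaged 0.366 for K5R/K8R/K16R, 0.46 for K5R/K12R/K16R and 0.4 for K8R/K12R/K16R. A spread of this size was therefore not particular to K5R/K8R/K12R.

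HSP12, which encodes a small membrane-binding stress protein, had the highest ratio. It read 2.78 on the MDY482 array and 3.02, 3.45, 3.34 and 2.95 on the MDY465 arrays, a fitted log2 ratio of 3.07 ± 0.14, or 8.4-fold (limma adjusted p = 1.78e-23). PUT1, the proline oxidase of mitochondria, read 2.37 with MDY482 and 2.75, 3.2, 3.46 and 2.55 with MDY465 (fitted 2.81 ± 0.16). All arrays of both genes were far above 0, and the MDY482 array was the lowest of the 5 for each. RIM4, an RNA-binding protein that acts in meiosis, read 2.95 with MDY482 and 2.64, 2.6, 2.97 and 2.8 with MDY465 (fitted 2.81 ± 0.10). DDR2, a gene induced by many stresses, followed at 2.73 ± 0.14, with arrays between 2.4 and 3.08. The next genes were MSC1 at 2.42 ± 0.11, the hexokinase HXK1 at 2.29 ± 0.12 and the glycogen phosphorylase GPH1 at 2.21 ± 0.12. The remaining genes of the 15 highest lay between 1.80 (HXT6, a high-affinity glucose transporter) and 2.06 (RTC3). They include INO1, which makes inositol phosphate from glucose 6-phosphate (1.96 ± 0.11), SER3, the first enzyme of serine synthesis (1.89 ± 0.07), the reticulon RTN2 (1.87 ± 0.07) and SNZ1 of vitamin B6 synthesis (1.83 ± 0.11). CIS1 (fitted 2.00 ± 0.25) had arrays between 1.61 and 3.21, with the highest of them alone above 1.98, and its fitted value without that array was 1.75.

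COS10, a member of a family of membrane proteins encoded mostly near telomeres, had the lowest ratio. It read -3.07 with MDY482 and -2.6, -3.12, -3.09 and -2.51 with MDY465, a fitted log2 ratio of -2.90 ± 0.25, or 7.45-fold lower (limma adjusted p = 5.46e-14). AIF1, the yeast relative of the apoptosis-inducing factor, was the tightest of the low genes: its 5 arrays lay between -2.32 and -2.14 (fitted -2.25 ± 0.14). The arrays of the 2 strains overlapped for both genes. Then came the acid phosphatases PHO12 (-1.93 ± 0.16) and PHO11 (-1.80 ± 0.14), and PHO81, which inhibits the Pho80-Pho85 kinase when phosphate is short (-1.92 ± 0.09). A group of hexose transporter paralogs lay close together, HXT15 at -1.83 ± 0.13, HXT16 at -1.79 ± 0.12, HXT17 at -1.68 ± 0.15 and HXT13 at -1.62 ± 0.14. BNA5, the kynureninase of NAD synthesis, closed the 15 lowest at -1.53 ± 0.06. The plot of the highest and lowest genes shows the arrays of these 30 genes. They were picked among genes with the same sign on all arrays, so none could cross 0.

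**Figure D1:**
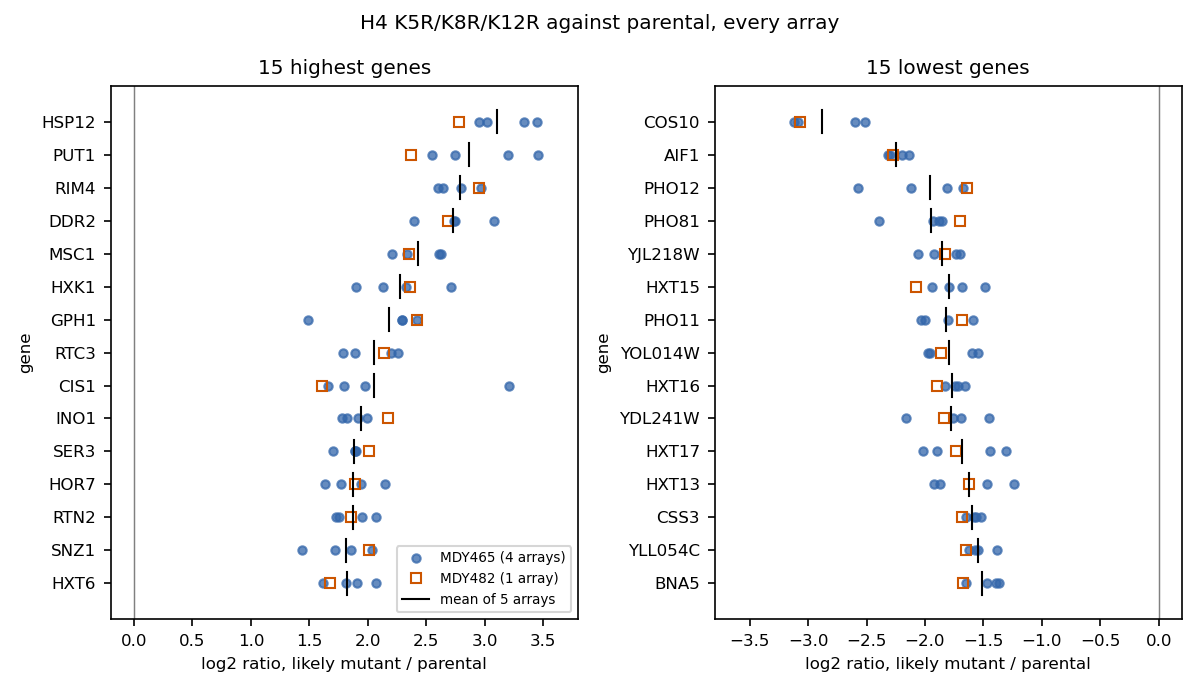
Log2 ratio (likely mutant over parental, x axis) of the 15 genes with the highest and the 15 with the lowest fitted values in K5R/K8R/K12R, 1 row per gene. They were picked among genes past the threshold with the same sign on all arrays. Filled circles are the 4 arrays of strain MDY465, open squares the array of strain MDY482 and vertical bars the mean of the 5 arrays. By this choice every array lies on one side of 0. CIS1 and GPH1 each have 1 array away from the other 4.

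Genes of the general stress response moved together. This set is driven largely by the factors Msn2 and Msn4 and answers heat, osmotic stress and starvation. Of 66 measured members, 58 were higher, 2 were lower and 6 did not pass the test, with a median log2 ratio of 1.05 (all genes: -0.00446), and 35 were higher by at least 2-fold. The list's median was between 0.864 and 1.17 on the 5 arrays. GAD1, glutamate decarboxylase, read 1.86 with MDY482 and 1.82, 1.6, 2.05 and 1.55 with MDY465 (fitted 1.78 ± 0.08). The 2 members that were lower were CCP1, a mitochondrial peroxidase, at -0.40 and PIL1, a core protein of eisosomes at the plasma membrane, at -0.28 (both named after their values were seen). MSN4 itself was higher at 0.47. USV1, a stress-induced transcription factor, was higher at 1.37 ± 0.09.

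Storage carbohydrate genes had higher calls only. Of 21 genes of trehalose and glycogen metabolism 13 were higher and none was lower, with a median of 1.02. Members for and against are named here after their values were seen. Those higher included TPS1 (1.09) and TPS2 (1.45) of trehalose synthesis, GSY1 (1.27) and GSY2 (1.18), which extend glycogen, and GLC3 (1.53), which branches it. The enzymes that break these stores down were higher too, GPH1 as given above and the trehalase NTH1 at 1.02 ± 0.05, as was the phosphoglucomutase PGM2 at 1.70 ± 0.08 (4 arrays). TPS3, a subunit of the trehalose synthase complex (0.08), the glycogenin genes GLG1 (0.08) and GLG2 (0.09), which prime glycogen, and the phosphatase subunits GAC1 (0.02), PIG1 (-0.01) and PIG2 (-0.14) did not pass the test.

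Heat shock chaperones had more higher than lower calls. Of 34 measured, 18 were higher, 1 was lower and 15 did not pass the test (median 0.42). HSP42, a small heat shock protein, was the highest of them at 1.59 ± 0.08, followed by HSP26 at 1.06. The mitochondrial chaperones HSP78 (0.94 ± 0.07), MDJ1 (0.88 ± 0.08), HSP60 (0.77) and SSC1 (0.75) were higher. The ribosome-bound SSB1 (-0.08) and SSB2 (-0.13) and the constitutive SSA2 (0.04) and HSC82 (0.04) did not pass the test, and the Hsp110 gene SSE1 was the 1 that was lower (-0.18); these members were named after their values were seen.

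Respiratory genes were higher in modest steps. Of 39 measured genes of oxidative phosphorylation 32 were higher and none lower (median 0.489), and on the 5 arrays the list's median ran from 0.337 to 0.641. COX5B, the alternative subunit 5 of cytochrome c oxidase, was at 1.15 ± 0.08, SDH4 of succinate dehydrogenase at 0.87 ± 0.07, CYT1, cytochrome c1, at 0.86 ± 0.09 and COR1 of the bc1 complex at 0.82 ± 0.07. Of 29 genes of the tricarboxylic acid cycle, the glyoxylate cycle and gluconeogenesis 17 were higher and 3 lower (median 0.305). ACS1, acetyl-CoA synthetase, reached 1.16 ± 0.10 and MLS1, malate synthase, 1.12 ± 0.10, while PCK1, the key enzyme of gluconeogenesis, at 0.21 did not pass the test. Mitochondrial ribosomal proteins, chosen by gene name, had 50 of 54 higher and none lower with a median of 0.396, although the name rule also takes in MRP8, which is not a ribosomal protein. Examples are MRPL9 at 0.53 ± 0.05 and MRP51 at 0.50 ± 0.05. Proteasome genes had 20 of 34 higher and none lower (median 0.19), led by their activator RPN4 at 0.59 ± 0.07. The proteasome count was 10 among the MDY453 arrays alone, where the shares over all genes fell too (1063 higher and 973 lower).

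Ribosome production genes went the other way. Of 123 ribosome biogenesis genes 101 were lower and none higher, with a median of -0.346 and a lowest value of -0.85. FAF1 (-0.85 ± 0.08), RRP8 (-0.73 ± 0.06), MAK11 (-0.62 ± 0.06) and BRX1 (-0.57 ± 0.05) act in the making of the ribosomal subunits or in modifying rRNA. BRX1 was even across arrays, with -0.55 for MDY482 and -0.5, -0.6, -0.63 and -0.55 for MDY465. RNA polymerases I and III, which make rRNA and tRNA, had 18 of 27 subunits and factors lower and none higher (median -0.29), led by RPC34, whose arrays lay between -1.11 and -0.69, and RPC17 at -0.89 ± 0.08. The cytosolic ribosomal proteins themselves differed less: 24 of 133 were lower, 6 higher and 103 did not pass the test (median -0.0424). The lower count of cytosolic ribosomal proteins ran from 4 in the MDY453 arrays alone to 38 without the strain block. Over all genes the lower counts in these fits were 973 and 1929. Purine synthesis genes had 16 of 24 lower and 2 higher (median -0.325), led by ADE17 at -1.04 ± 0.10, which acts in the last steps of the pathway to IMP.

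**Figure D2:**
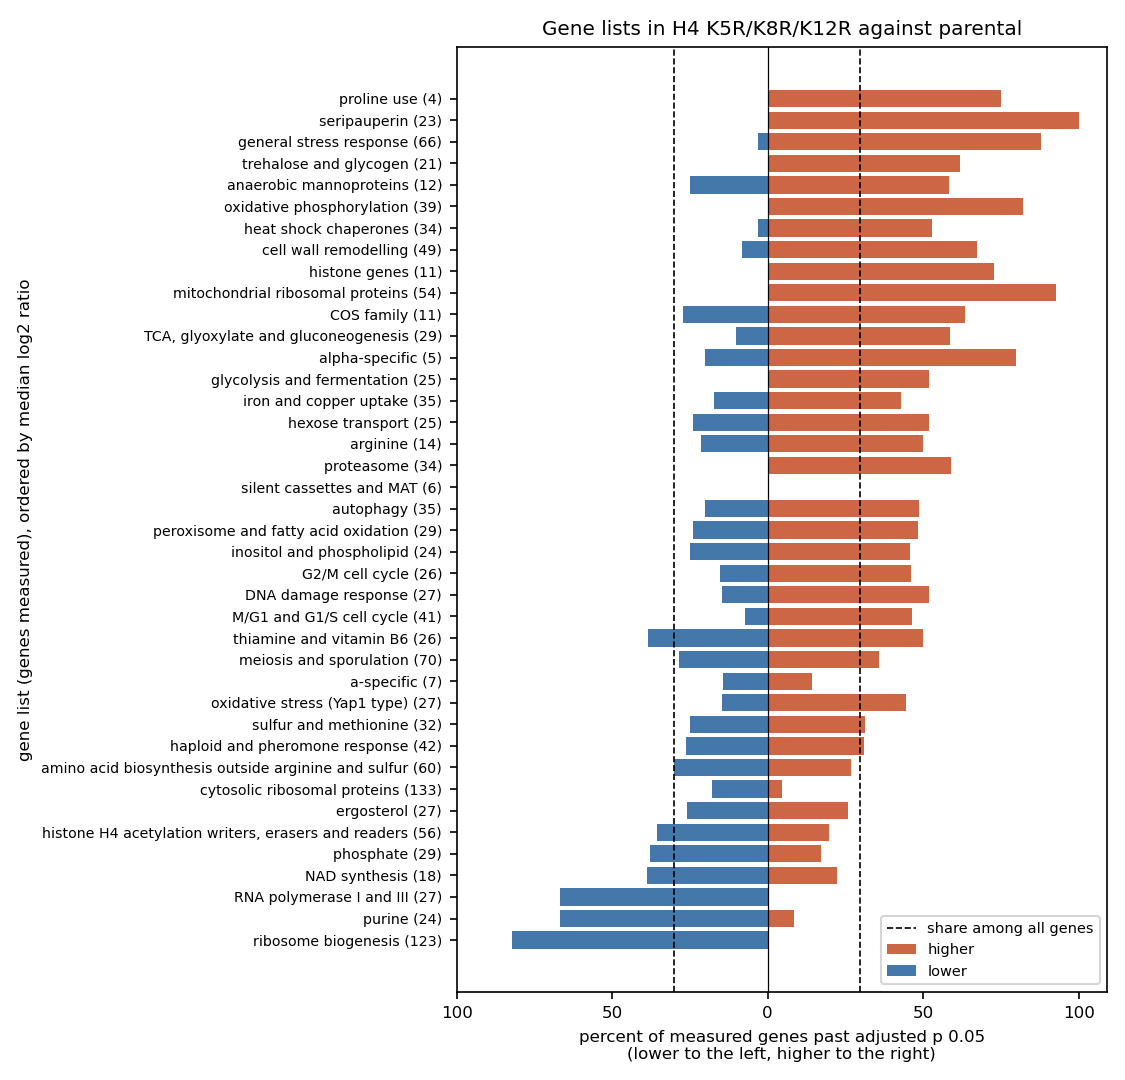
Percent of the measured genes of each list that were higher (bars to the right) or lower (bars to the left) in K5R/K8R/K12R than in parental cells at a limma adjusted p under 0.05, lists ordered by median log2 ratio. Dashed lines mark the shares among all genes, 29.8% higher and 30.2% lower; seripauperin genes (23 of 23 higher) and ribosome biogenesis genes (101 of 123 lower) lie near the top and at the bottom.

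Phosphate genes included 3 of the 15 lowest ratios. When phosphate is short, Pho81 blocks the Pho80-Pho85 kinase, and the factors Pho4 and Pho2 then switch on phosphatases, transporters and polyphosphate synthesis. Of 29 genes 11 were lower (37.9%, against 30.2% of all genes) and 5 higher (17.2%, against 29.8%), with a median of -0.132. By at least 2-fold 4 of the 29 were lower, against 0.939% of all genes, and none was higher. PHO81 read -1.7 with MDY482 and -2.39, -1.88, -1.85 and -1.93 with MDY465. PHO12 read -1.64 with MDY482 and -2.57, -2.12, -1.81 and -1.67 with MDY465. The MDY482 array was the closest to 0 of the 5 for both genes, and 1 MDY465 array was the lowest for both. PHM6 was lower at -1.12 ± 0.09, the transporter PHO89 at -0.52, the polyphosphate synthesis genes VTC3 (-0.48) and VTC2 (-0.45), and the activator PHO4 (-0.26). The transporter PHO84 (0.19) and the main acid phosphatase PHO5 (-0.15), which are targets of the same pathway, did not pass the test, nor did the kinase genes PHO85 (0.12) and PHO80 (0.14). PHO11 and PHO12 are close paralogs, so their probes may share signal.

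Hexose transporter genes had calls in both directions. HXT6 (1.80 ± 0.10), HXT7 (1.52 ± 0.10), HXT5 (0.92 ± 0.06) and HXT4 (0.78) were higher, as was MTH1, which keeps HXT genes repressed in low glucose (1.11 ± 0.06). The low-affinity transporter HXT1 was lower at -0.83. HXT13, HXT15, HXT16 and HXT17 were lower by the amounts given above. Of the 25 listed genes 13 were higher (52%) and 6 lower (24%), against 29.8% and 30.2% of all genes. HXT15 read -2.08 with MDY482 and -1.49, -1.79, -1.94 and -1.68 with MDY465. Probes of HXT6 and HXT7, and of the 4 low paralogs, may share signal because the genes are near-identical in sequence.

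Seripauperin (PAU) genes, a family of near-identical genes for small cell wall proteins that lie mostly near chromosome ends and are known for their induction without oxygen, were all higher. All 23 measured genes passed the test, between 0.89 (PAU16) and 1.45 (PAU19), and 22 were higher by at least 2-fold. The family's median was 1.74 on the MDY482 array and 1.21, 0.885, 0.947 and 0.849 on the MDY465 arrays, so the MDY482 array was the highest. Without it all 23 seripauperin genes were still higher, with a median of 0.952. Probes of this family cannot be taken as 23 separate measurements because the genes are alike in sequence. Other wall proteins known from anaerobic growth did not all follow: CWP1 (1.74 ± 0.08), SED1 (1.30 ± 0.11), TIR4 (1.05) and TIP1 (0.85 ± 0.08) were higher, whereas TIR3 (-0.43), DAN1 (-0.36) and TIR2 (-0.19) were lower. Among 49 cell wall genes 33 were higher and 4 lower (median 0.407). They include GSC2, a glucan synthase subunit (1.57 ± 0.09), and BGL2, which joins glucan chains (1.06 ± 0.08).

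Within several pathways single genes moved apart from the rest. In NAD synthesis from tryptophan, BNA2 (1.60 ± 0.09) and BNA1 (1.30 ± 0.08) were higher and BNA5, which acts between them, was lower. The list as a whole had 4 of 18 higher (22.2%) and 7 lower (38.9%), against 29.8% and 30.2% of all genes. BNA5 read -1.67 with MDY482 and -1.65, -1.39, -1.37 and -1.47 with MDY465. In proline use, the enzymes PUT1 and PUT2 (1.33 ± 0.08) and the permease PUT4 (1.47 ± 0.09) were higher, and their activator PUT3 at 0.04 ± 0.08 did not pass the test. In phospholipid synthesis INO1 and OPI3 (1.63 ± 0.11), which adds methyl groups to make phosphatidylcholine, stood far above the next gene, CHO1 at 0.47 ± 0.06. Vitamin B6 genes went in opposite directions: SNZ1 (1.83) and SNO1 (0.89 ± 0.10) were higher and their paralogs SNZ2 (-0.91), SNZ3 (-0.92), SNO2 (-0.74) and SNO3 (-0.74), named after their values were seen, were lower. In the COS family COS10 was lower by far more than COS9 (-0.71 ± 0.09) and COS12 (-0.41). Of the 11 members 7 were higher (63.6%), up to 0.53, and 3 lower (27.3%). Iron genes had more higher than lower calls. Of 35 genes 15 were higher (42.9%, against 29.8% of all genes), among them FIT3 (1.13) and TIS11 (0.76). The 6 that were lower (17.1%, against 30.2%) included the low-affinity transporter FET4 (-1.50 ± 0.16) and the reductase FRE3 (-1.17 ± 0.14).

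Meiosis genes showed no common direction: 25 of 70 were higher (35.7%) and 20 lower (28.6%), with a median of 0.0815. These shares lay near those of all genes, 29.8% and 30.2%. The lower count of meiosis and sporulation genes was 7 in the MDY453 arrays alone and 12 with arrays scaled to one spread. Over all genes the lower counts in these fits were 973 and 1398, in place of 1671. RIM4, SGA1, a glucoamylase of sporulating cells (1.78 ± 0.10), OSW1 (1.18 ± 0.06) and the kinase IME2 (0.98 ± 0.06) were higher. IME1, the master activator of meiosis, was lower (-0.80), as was NDT80, the activator of its middle genes (-0.31). Of the markers for meiotic cells and spores, DIT1 (0.92) and SPS100 (0.77) were higher, SMK1 (-0.71) and DIT2 (-0.18) lower, and SPS4 (0.11) did not pass the test. In the DNA damage list 14 of 27 genes were higher (51.9%, against 29.8% of all genes) and 4 lower (14.8%, against 30.2%). The ribonucleotide reductase genes RNR2 (1.04 ± 0.08) and RNR4 (1.09 ± 0.09) were among the highest of that list.

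Mating-type genes were examined as markers of cell type and of the silent cassettes. Ratios carry no absolute level, so they do not show which mating type the strains had. Of 7 a-specific genes 1 was higher (MFA2, 0.42 ± 0.13), 1 lower (ASG7, -0.48 ± 0.10) and 5 did not pass the test. MFA2 was not past the threshold in the MDY453 arrays alone (adjusted p = 0.101) or with arrays scaled to one spread (adjusted p = 0.129). STE2, the receptor for alpha factor, read -0.03 with MDY482 and 0.1, -0.24, -0.12 and 0.1 with MDY465. Of 5 alpha-specific genes 4 were higher and 1 lower. MF(ALPHA)1, which encodes alpha factor, read 1.07 with MDY482 and 1.36, 1.55, 1.13 and 1.29 with MDY465 (fitted 1.26 ± 0.08). SAG1, the alpha agglutinin, was at 0.94 ± 0.09 and MF(ALPHA)2 at 0.17 ± 0.05 (limma adjusted p = 0.00525). STE3, the receptor for a-factor, at 0.27 ± 0.12 was only just past the threshold (limma adjusted p = 0.0456). MF(ALPHA)2 was no longer past it without the MDY482 array (adjusted p = 0.0723), nor was STE3 without MDY465 replicate 2, 3 or 5 (adjusted p between 0.0533 and 0.153) or with strains as samples (adjusted p = 0.279). AFB1, which produces a barrier to a-factor, was lower at -1.19 ± 0.08. None of the 6 genes at MAT and the silent cassettes passed the test. MATALPHA1 read 0.49 with MDY482 and 0.16, 0.29, 0.53 and 1.1 with MDY465 (fitted 0.51 ± 0.24, adjusted p = 0.068, 95% interval 0.03 to 0.99). It passed the threshold without MDY465 replicate 2 (adjusted p = 0.0463), with the replicate number as a block (0.0354), with strains as samples (0.0483) and in 3 other fits. It moved away from the threshold in the MDY453 arrays alone (0.341). Without MDY465 replicate 5, its highest array, the fitted value was 0.38 (adjusted p = 0.2). Sequences of the cassettes and MAT are shared, so their probes cannot be told apart. The list of haploid and pheromone response genes had no common direction, with 13 of 42 higher and 11 lower. These shares were 31% and 26.2%, against 29.8% and 30.2% of all genes. The median was 0.0472 and the highest value 0.95. Of the genes expressed in haploid cells of either type, NEJ1, a non-homologous end joining factor, was lower (-1.42 ± 0.08). So was the pheromone kinase FUS3 (-1.34 ± 0.14), while GPA1 (-0.07 ± 0.09) and FAR1 (0.02 ± 0.09) did not pass the test. The markers of haploid cells also include STE4, STE18, RME1 and HO, whose values are not given here. PRM5 and GIC2, with test statistics between those of NEJ1 and FUS3 in size, are not given either. The genes named here therefore do not stand for the whole list.

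Histone genes and the enzymes of H4 acetylation were looked at directly. The H4 genes HHF1 (0.15 ± 0.09, adjusted p = 0.162) and HHF2 (0.19 ± 0.09, adjusted p = 0.0521) did not pass the test. HHF2 lay near the threshold: it passed without MDY465 replicate 2 (adjusted p = 0.0444) and with a replicate block (0.0478). It did not pass without MDY465 replicate 3 (0.158) or with strains as samples (0.14). HHF1 passed without the 3 arrays of the series with few missing values (0.0461). It was far from the threshold without MDY465 replicate 3 (0.294) and with strains as samples (0.565). Without the strain block both HHF2 and HHF1 passed (0.0132 and 0.0369). Of the 11 histone genes 8 were higher, led by HTB1 (0.87 ± 0.09) and HTA1 (0.64 ± 0.09) of H2B and H2A. Among 56 writers, erasers and readers of H4 acetylation 11 were higher (19.6%) and 20 lower (35.7%), with a median of -0.111. The higher share was below the 29.8% of all genes, and the lower share was near their 30.2%. Without the MDY482 array 7 of the histone H4 acetylation writers, erasers and readers were higher, and over all genes 1462 in place of 1651. BDF2, a bromodomain protein, was the highest (0.94 ± 0.05). It read 1.01 with MDY482 and 0.87, 0.86, 0.99 and 0.93 with MDY465. Its paralog BDF1 was at 0.35, and ESA1, the catalytic subunit of NuA4, at 0.23. The deacetylases HOS1 (-0.54 ± 0.06) and HOS3 (0.62 ± 0.08) differed in direction, and RPD3 (-0.15) and SIR2 (0.19) did not pass the test.

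Position on the chromosome was compared with direction. Of the 15 lowest genes 9 (60%) lay within 20 kb of a chromosome end, against 4.28% of all genes and 13.3% of the 15 highest. Among the 52 genes lower by at least 2-fold, 17 (32.7%) lay within 20 kb and 26 (50%) within 40 kb, with 51 of them placed, against 4.28% and 9.04% of all genes. Among the 144 genes higher by at least 2-fold, 25 lay within 20 kb, and 17 of these 25 were seripauperin genes. The 237 genes within 20 kb as a whole had 74 higher and 82 lower calls (31.2% and 34.6%) with a median of -0.0205, near the background in both directions. With the ratio turned, the share of 60% would belong to the 15 highest genes. These shares describe the genes, several of which are paralogs of each other, and are not a test.

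The double mutants show what the third substitution added. A gene-specific offset that all arrays share cancels in this difference, unlike in the ratio to the parental strain. Against the mean of K5R/K8R, K5R/K12R and K8R/K12R the triple mutant had 1030 genes higher (18.6%) and 921 lower (16.6%), of which 69 (1.25%) and 12 (0.217%) differed by at least 2-fold. PUT1 rose most beyond the doubles, by 2.48 ± 0.19. Its means were 0.18 ± 0.08 (SD, n = 4) in K5R/K8R, 0.34 ± 0.19 (n = 3) in K5R/K12R and 0.49 ± 0.06 (n = 3) in K8R/K12R, against 2.87 ± 0.46 (n = 5) in the triple mutant. RIM4 was beyond the doubles by 2.32 ± 0.12, HSP12 by 2.04 ± 0.17 and SER3 by 1.59 ± 0.09. For RIM4 the lowest triple-mutant array, 2.6, was far above the double means of 0.36, 0.51 and 0.61. On the lower side PHO12 fell beyond the doubles by 1.38 (SE 0.20), and BNA5, whose double means were 0.03, -0.38 and -0.42, by 1.28 (SE 0.08). All 144 genes higher by at least 2-fold were also above the doubles, as were 43 of the 52 lower ones below them; the same 5 arrays enter both values, so this describes the genes and is not separate evidence.

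Added one at a time, K12R on K5R/K8R changed the most genes: 859 were higher (15.5%) and 761 lower (13.7%). K8R on K5R/K12R gave 667 higher (12%) and 545 lower (9.84%), and K5R on K8R/K12R gave 662 (11.9%) and 476 (8.59%). The difference between these counts was not tested. PUT1 and RIM4 had the largest increases in all 3 steps. COS10 and AIF1 had the largest decreases when K12R was added to K5R/K8R, and PHO12 and PHO11 when K8R was added to K5R/K12R. With arrays scaled to one spread, the decrease of COS10 was no longer past the threshold (-0.85, adjusted p = 0.155). All arrays of K8R/K12R were of 1 strain against MDY470, and the total of 1138 genes for that step was 534 with strains in place of arrays as samples.

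The stress and respiration lists continued in this step. Of 66 general stress genes 57 were above the doubles and none below (median difference 0.696), as were 13 of 21 trehalose and glycogen genes (0.532), 18 of 34 chaperones (0.236), 19 of 39 genes of oxidative phosphorylation (0.281) and 29 of 54 mitochondrial ribosomal proteins (0.223). Of 123 ribosome biogenesis genes 69 were below the doubles and none above (median difference -0.238). All 23 seripauperin genes were above them, by a median of 1.17. The family was near the parental level in the doubles; PAU7 averaged -0.14 in K5R/K8R, -0.03 in K5R/K12R and 0.05 in K8R/K12R.

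Transporter paralogs behaved otherwise. HXT15 was already at -1.41 ± 0.13 (SD, n = 4) in K5R/K8R, -1.93 ± 0.05 (n = 3) in K5R/K12R and -1.80 ± 0.24 (n = 3) in K8R/K12R, and the triple mutant at -1.79 ± 0.23 (n = 5) overlapped them. The difference from the mean of the doubles was -0.11 ± 0.15 (limma adjusted p = 0.596), with a 95% interval from -0.42 to 0.20. For HXT13 it was -0.12 (interval -0.46 to 0.22), for HXT16 -0.17 (-0.47 to 0.13) and for HXT17 -0.16 (-0.52 to 0.20). A change of 1 on the log2 scale, as seen for PHO12 and BNA5, lies outside all 4 intervals. These genes were below 0 in the single mutants too, with HXT15 at -0.59 in K5R, -0.61 in K8R and -1.18 in K12R. The plot of 8 genes from single to triple mutant sets both patterns side by side.

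**Figure D3:**
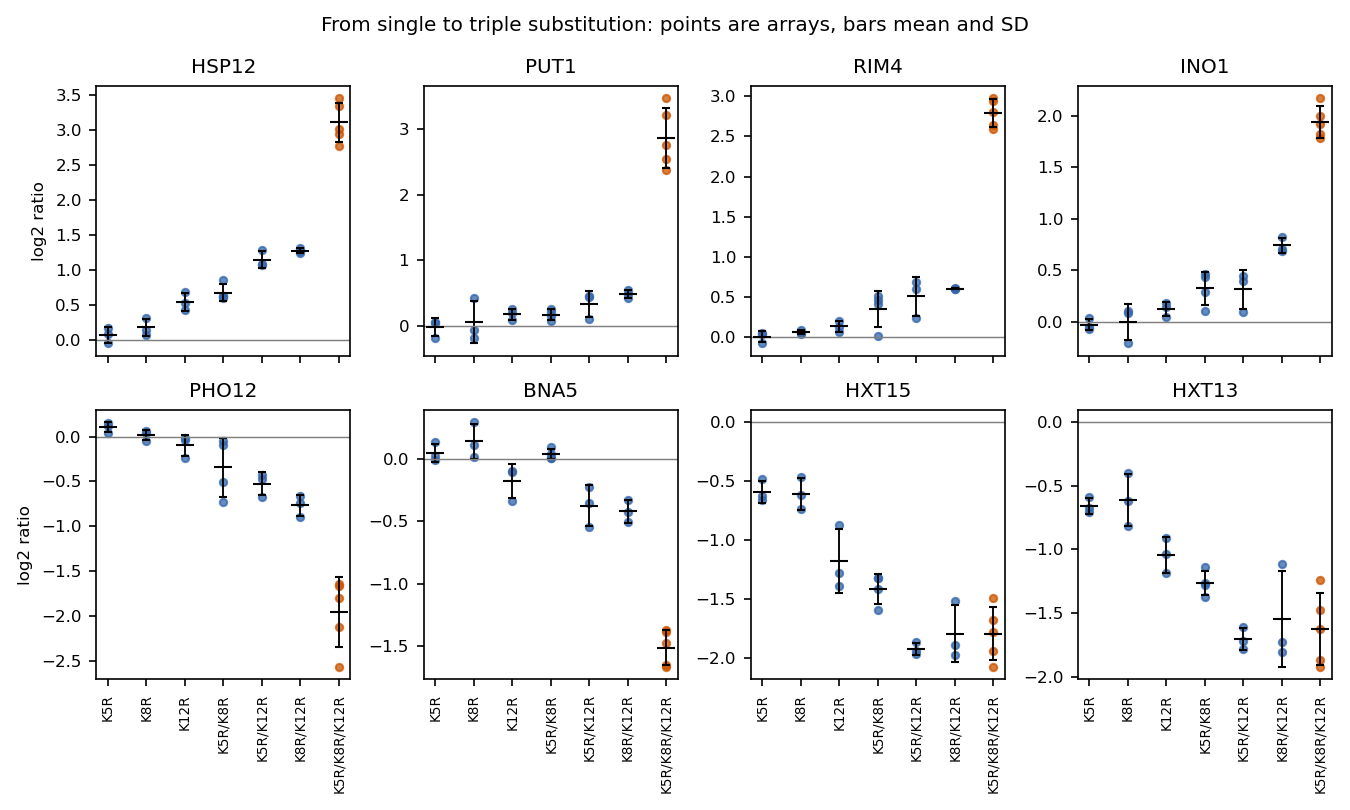
Log2 ratio (likely mutant over parental, y axis, scale differing by panel) of 8 genes in the single, double and triple mutants without K16R. Points are arrays (triple mutant in orange) and bars the mean and SD; HSP12, PUT1, RIM4 and INO1 step up and PHO12 and BNA5 step down at the triple mutant, while HXT15 and HXT13 are as low in K5R/K12R as in the triple mutant.

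Single mutants gave the scale for additivity: if effects add on the log2 scale, the triple mutant equals the sum of K5R, K8R and K12R. The triple mutant differed from that sum for 683 genes above it (12.3%) and 646 below it (11.7%), 104 (1.88%) and 21 (0.379%) of them by at least 2-fold. An offset shared by all arrays does not cancel here, since 1 ratio is set against the sum of 3. RIM4 exceeded the sum most, by 2.59 ± 0.23, with single means of 0.01 in K5R, 0.06 in K8R and 0.14 in K12R that add to 0.21. PUT1 exceeded it by 2.55 ± 0.36, HSP12 by 2.30 ± 0.31, INO1 by 1.90 ± 0.24 and USV1 by 1.73 ± 0.19. PHO12 lay farthest below it, at a difference of -1.94 ± 0.36 from a sum of 0.02, though in the MDY453 arrays alone its difference was not past the threshold (-2.10, adjusted p = 0.0572). SDL1 (-1.73 ± 0.24), PHO11 (-1.53 ± 0.32, not past the threshold in the MDY453 arrays) and BNA5 (-1.52 ± 0.14) followed. In BNA5 the singles were at 0.05, 0.14 and -0.18 and the triple mutant at -1.51 ± 0.14 (SD, n = 5).

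The genes that were 2-fold or more from the parental strain were also set against the sum. They were picked for a large value on the same 5 arrays, which favours values beyond the sum, so the counts describe these genes and are not a test. Of the 144 higher genes 118 were beyond the sum, none was short of it and 26 did not pass that test. Of the 52 lower genes 32 were beyond it, none short and 20 did not pass. The transporter paralogs were among the last: HXT15 differed from the sum by 0.58 ± 0.28 (adjusted p = 0.131, 95% interval 0.01 to 1.15) and HXT13 by 0.71 ± 0.31 (adjusted p = 0.0883, 0.09 to 1.34). COS10 lay at -1.43 ± 0.55 from a sum of -1.48 and did not pass the test (adjusted p = 0.0516). By list, 41 of 66 general stress genes were above the sum and none below it, all 23 seripauperin genes were above it, and 36 of 123 ribosome biogenesis genes were below it and none above. In the MDY453 arrays alone 3 of the 23 seripauperin genes were above the sum, with a median difference of 1.10 in place of 1.39. The count over all genes fell in that fit too, to 57 of 5535 genes above the sum from 683 of 5540.

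**Figure D4:**
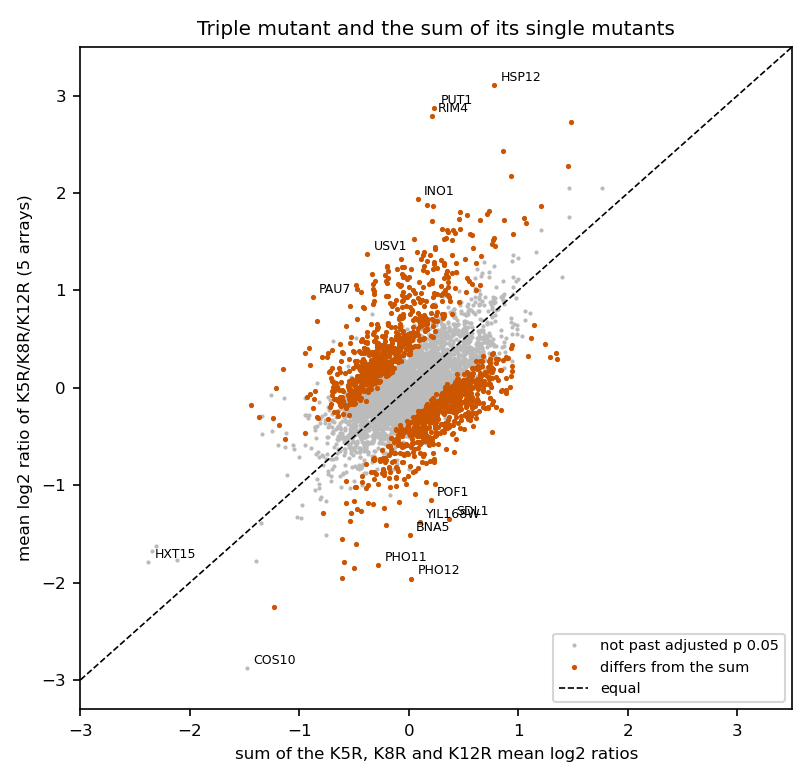
Mean log2 ratio of each gene in K5R/K8R/K12R (y axis, 5 arrays) against the sum of the K5R, K8R and K12R means (x axis); orange points differ from the sum at a limma adjusted p under 0.05 and the dashed line marks equality. RIM4, PUT1 and HSP12 lie far above the line and PHO12 and BNA5 far below it, while HXT15 is low on both axes.

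The triple mutants with K16R have as many substitutions but lack lysine 16. Against their mean, K5R/K8R/K12R had 543 genes higher (9.8%) and 388 lower (7%), with 40 of the higher genes (0.722%) and none of the lower ones at 2-fold or more. The largest differences were in mating genes: MFA2 (3.42 ± 0.15) and MFA1 (3.06 ± 0.19), which encode a-factor, the pheromone receptor's G protein subunit GPA1 (3.02 ± 0.10), the protease BAR1 (2.73 ± 0.13), STE2 (2.64 ± 0.12) and FAR1 (2.24 ± 0.11). All 7 a-specific genes were higher in this comparison. GPA1 read -0.1 with MDY482 and 0.16, -0.24, -0.13 and 0 with MDY465, so the triple mutant with lysine 16 was near the parental level. Genes within 20 kb of a chromosome end had 92 of 237 higher and 5 lower (median 0.224). General stress genes were higher in 36 of 66 and lower in 1 (median 0.336), and seripauperin genes in 22 of 23. In the other direction 49 of 123 ribosome biogenesis genes were lower and none higher, and so were PHM6 (-0.91 ± 0.11), ARG1 of arginine synthesis (-0.82 ± 0.13), YOL014W (-0.81 ± 0.11) and KEI1, which acts in sphingolipid synthesis (-0.74 ± 0.08). YPL077C also appeared there at -0.80 ± 0.19 but rests on the MDY482 array: without it the difference was -0.19 (adjusted p = 0.232).

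The MDY482 array was compared with the MDY465 arrays last. It differed from them in 66 of 5533 genes (1.19%), 39 higher (0.705%) and 27 lower (0.488%), with 6 (0.108%) and 2 (0.0361%) at 2-fold or more. It was taken to vary like the arrays of other strains, and with 1 array, which also stood apart in the technical measures given above, these calls compare an array and do not show a difference of the strain. All 23 seripauperin genes were among the 39. With arrays scaled to one spread 4 genes were higher in all, so at least 19 of the 23 seripauperin calls were lost. EAR1, an adaptor of the Rsp5 ubiquitin ligase, read 1.89 with MDY482 and -0.36, 0.56, -0.4 and 0.16 with MDY465, a difference of 1.90. ATF2, an alcohol acetyltransferase that acts on sterols, read 0.35 with MDY482 and between -1.39 and -0.9 with MDY465. The sterol genes HES1, an oxysterol-binding protein, and ERG3, a sterol desaturase, differed by 1.15 and 1.08, and the ergosterol list had 4 of 27 genes higher on the MDY482 array. YPL077C read -2.59 with MDY482 and between -0.66 and -0.31 with MDY465. For UBC11, a ubiquitin-conjugating enzyme gene, the difference was -1.28. With arrays scaled to one spread EAR1 (adjusted p = 0.0547) and ATF2 were not past the threshold. None of the general stress, trehalose and glycogen, ribosome biogenesis, cytosolic ribosomal or mating-type genes tested passed the threshold here apart from PRM2, of the pheromone response list, which was named after its value was seen.

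**Figure D5:**
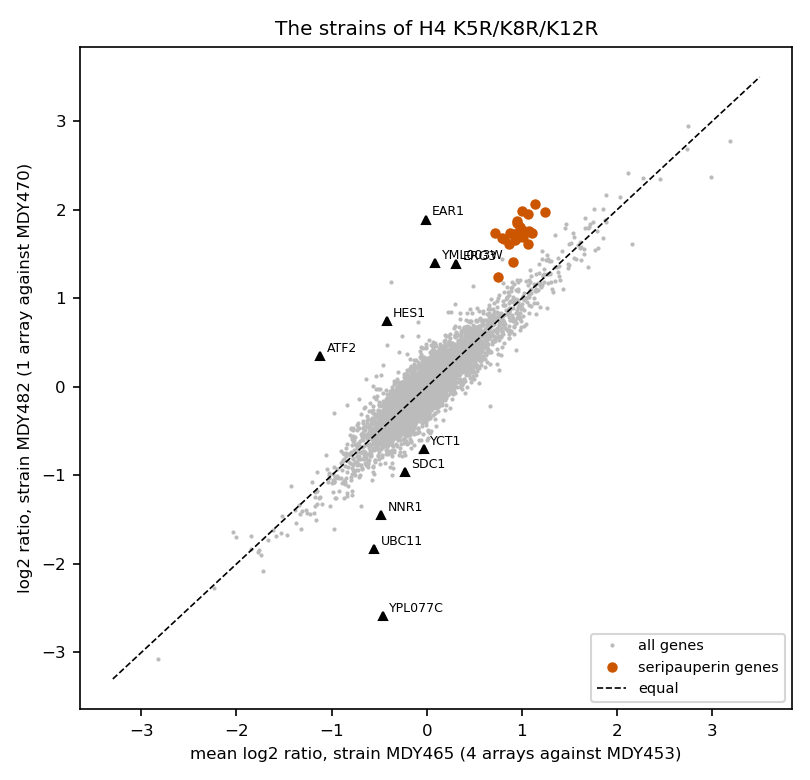
Log2 ratio of each gene on the array of strain MDY482 (y axis, against MDY470) and the mean over the 4 arrays of strain MDY465 (x axis, against MDY453), with the line of equality. All 23 seripauperin genes (orange) lie right of 0 and above the line, triangles mark the 10 genes named for their differences between the MDY482 array and the others, and most other genes lie along the line.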

How the data were processed

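RNA was measured on 2-colour arrays, with the parental strain in channel 1 and the mutant in channel 2 per the labels. Each array has 1 deposited log2 ratio for a probe; base 2 was inferred because the largest value, 6.64, is log2 of 100. The ratio's direction, how the authors corrected background and normalized, and which dye each channel had, are not given in the sources here. Of 6720 probes 5570 have 1 gene name, 0 several and 1150 none, and 5565 matched the R64 gene table, used for names and for distance from the outermost annotated genes of a chromosome. Values at the ratio limit (4346, 43 of them in named probes) were set to missing, arrays were centred on their medians (-0.0702 to 0.0537 before centring) and probes of a gene were averaged (29 genes). A technical pair of the quadruple mutant was averaged, which left 54 samples.

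One linear model per gene, with a mean for each mutant and mutant strain as a random block (correlation 0.205), was fitted by lmFit and eBayes of limma 3.58.1 (R 4.3.3); p-values are two-sided and adjusted by Benjamini-Hochberg over 5540 genes; fits that leave out an array kept that correlation. On simulated data with 5540 genes the comparison with the parental strain recovered 97 of 100 genes changed by 0.5 and 100 of 100 changed by 1. It made 8 false calls. The simulated noise was normal with a strain effect and held no parental spread or offset shared by arrays. The false calls therefore do not measure errors from those sources. No array pair correlated below 0 (lowest r 0.00526). Precision is limited by how many arrays there are; spot intensities were not used here.

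Named genes were the 15 highest and 15 lowest ratios with 1 sign on all arrays, up to 4 per list by test statistic, all mating-type, cassette and histone genes, 6 per direction for the differences from doubles, singles and K16R triples, 2 per direction for each double, and 5 per direction for the strains. Further list members named for contrast were picked after their values were seen. The mutant, the lists and these rules were chosen with earlier results of these data known.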

Additional observations from a re-analysis of the deposited data

Results flagged for a closer look

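In 18 of the 209 named genes (8.61%) 1 of the 5 arrays lay apart from the other 4; chance does this in about 1 of 20 groups of values. Of these genes 10 were named because the MDY482 array differed from the others, and they hold 6 of the 18, a count that the choice itself favours. Among the other 199 genes it was 12 (6.03%), near the chance rate. The array apart was that of strain MDY482 in 9 genes. In 6 of them the naming rule favoured this: YPL077C (-2.59), UBC11 (-1.83), ATF2 (0.35), YML003W (1.40), HES1 (0.74) and ERG3 (1.39). The other 3 were ERG28 (-0.18), ADR1 (0.83) and PAU15 (2.07). It was MDY465 replicate 2 in GPH1 (1.49, next value 2.29), FAR1 (-0.36) and RPS9B (-0.11), and MDY465 replicate 3 in RPC34 (-0.69), HMLALPHA2 (0.65), HHF2 (0.40), HOM2 (0.67) and MHT1 (-1.14). It was MDY465 replicate 4 in CIS1 (3.21, next value 1.98).

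The genes named for a difference between the 1 array of MDY482 and the arrays of MDY465 in limma, given as MDY482 minus MDY465, were EAR1 (1.90, adjusted p = 9.85e-05), ATF2 (1.47), YML003W (1.31), HES1 (1.15), ERG3 (1.08), YPL077C (-2.13), UBC11 (-1.28), NNR1 (-0.97), SDC1 (-0.73, adjusted p = 0.04) and YCT1 (-0.67). SDC1 was no longer past the threshold without MDY465 replicate 3 (adjusted p = 0.106) or 5 (adjusted p = 0.0692). Strain, parental strain and array differ together in these values and cannot be told apart.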

How the results depend on the processing

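Of 4407 values of named genes under other settings 4350 kept their direction and side of the threshold, 24 newly passed it and 33 no longer did, and none that was past the threshold turned its direction. Of 748 list counts 31 moved by over 1.5 times. With MDY453 arrays alone, which hold fewer samples and 1 strain of the mutant, 2036 genes differed from the parental strain, 369 from K5R/K8R, 174 from K5R/K12R, 77 from the sum of the singles and 151 from the K16R triples; the contrasts that need K8R/K12R could not be fitted. With arrays scaled to one spread the counts were 1099 (mean of doubles), 794 (K5R/K8R), 517 (K5R/K12R), 533 (K8R/K12R), 2773 (sum of singles, where scaling enlarges the single mutants by construction), 416 (K16R triples) and 6 (strains). Without the strain block 1792 genes differed from K8R/K12R and 1525 from the K16R triples, and with strains as samples 534 and 577. Without centring the split against the sum of singles was 555 higher and 780 lower. Leaving out each array in turn gave 2908 to 3275 genes (parental), 1512 to 2004 (doubles), 1279 to 1726 (K5R/K8R), 808 to 1288 (K5R/K12R), 824 to 1189 (K8R/K12R), 1015 to 1500 (singles), 721 to 962 (K16R triples) and 47 to 93 (strains). A fit with the labelled number as a replicate block gave 3364 genes against the parental strain and changed no count by over 1.5 times. After the mean of each mutant was subtracted, same-numbered samples of different mutants correlated between -0.408 and 0.331 and others between -0.236 and 0.395. These ranges overlap, and with 7 pairs on each side they cannot show whether the numbers pair the samples. The search for promoter motifs was not run. Leaving out the 3 arrays with fewer than 50 missing values was added after seeing the data. Causes were not tested unless named.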

Other observations

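Most of the remaining gene groups had calls in both directions against the parental strain, where 29.8% of all genes were higher and 30.2% lower. Of 60 genes of amino acid synthesis outside arginine and sulfur 16 were higher and 18 lower, of 14 arginine genes 7 and 3, and of 32 genes of sulfur and methionine metabolism 10 and 8. SER3 (1.89) and ARG3, ornithine carbamoyltransferase (1.33), were far above the rest of their lists, and HIS6 of histidine synthesis was lower at -1.03. Of 35 autophagy genes 17 were higher and 7 lower, of 29 genes of peroxisomes and fatty acid oxidation 14 and 7, of 27 genes of the oxidative stress response 12 and 4, and of 27 ergosterol genes 7 and 7. Glycolysis and fermentation had 13 of 25 genes higher and none lower, with HXK1, GLK1, glucokinase (1.75), and PDC6, a minor pyruvate decarboxylase (1.17), at the top. In the MDY453 arrays alone 6 of them were higher, and over all genes 1063 in place of 1651. Of 26 genes of the G2/M phase 12 were higher and 4 lower, and of 41 genes of the M/G1 and G1/S phases 19 and 3. The last count of higher genes was 11 without the MDY482 array, where the count over all genes was 1462.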
